A study of Ovis aries with 36 samples.

Results

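The proteasome subunit genes were the loci of the deposited tables with a name that began with PSMA, PSMB, PSMC, PSMD, PSME, PSMF or PSMG followed by a digit, and with 10 or more counts summed over the 12 libraries of a tissue. This rule found 44 loci with 44 gene names in longissimus dorsi muscle, 43 loci with 43 names in subcutaneous adipose tissue and 44 loci with 43 names in perirenal adipose tissue, among 25351, 24536 and 25168 loci that met the same minimum. A total of 43 genes were found in all 3 tissues, and all 44 symbols were found in the RefSeq gene table for sheep. They comprised 13 genes of the core particle that are not immune-inducible, 3 inducible core genes, 16 genes of the regulatory particle, 6 assembly chaperones, 4 activators and PSMF1. PSMC3IP also met the rule, although its product is a factor of meiotic recombination and not a proteasome subunit. PSMA1, PSMB6, PSMC6, PSMD9 and PSMB11 were not analysed here.

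The libraries came from sheep fetuses collected late in gestation, whose dams had been fed alfalfa haylage (HY, labelled Hay), corn (CN) or dried corn distillers grains (DG) from mid gestation on. RNA of 26 fetuses from 15 dams was combined into 4 pools per diet, 2 of female fetuses (F1, F2) and 2 of male fetuses (M1, M2), and the same pools of fetuses were sequenced in each of the 3 tissues, which gave 36 libraries. Some pools of a diet shared dams, so p-values measure the spread between pools and not between independent litters. Muscle libraries held 13749762 to 29625146 counts, subcutaneous libraries 6705766 to 20272024 and perirenal libraries 7802700 to 15913813. In bulk tissue, a lower level of a transcript cannot be told apart from fewer cells that make it.

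The proteasome is the barrel-shaped protease that degrades proteins tagged with ubiquitin. Its core particle is built of alpha rings, which gate the channel, and beta rings, of which PSMB5, PSMB6 and PSMB7 carry the constitutive active sites. The regulatory particle caps the core, with a ring of PSMC ATPases that unfolds and feeds in substrates and PSMD subunits that bind and remove ubiquitin. PSMB8, PSMB9 and PSMB10 replace the constitutive catalytic subunits to form the immunoproteasome, which is best known from immune cells and interferon-treated cells and from the supply of peptides to class I molecules. In skeletal muscle, the ubiquitin and proteasome system degrades the contractile proteins during growth and wasting.

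The labelled tissues were checked against marker genes. The summed level of 16 skeletal muscle markers was 112112 to 162815 CPM (counts scaled to a common library size, with TMM factors) in muscle and 55.5 to 704 CPM in perirenal adipose tissue. In subcutaneous adipose tissue it ranged from 1076 to 158753 CPM, so that some of these pools reached the level of muscle itself. The summed level of 12 adipocyte markers was 115 to 238 CPM in muscle, with LEP listed at 0, against 2329 to 12137 CPM in subcutaneous and 7083 to 17620 CPM in perirenal adipose tissue. The 5 subcutaneous pools above 0.5 times the muscle marker level of the lowest muscle library were CN F2, DG F1, DG F2, DG M2 and HY F2, and the tissue comparisons with subcutaneous adipose tissue are also given without them.

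The gene models limit what can be compared between tissues, because loci were assembled separately in each tissue. Of the 44 genes, 29 had like models in all 3 tissues, meaning the same names, 1 locus per tissue and a region length within 1.2 times. PSME1, a subunit of the PA28 activator, shared a locus with DCAF11 and FITM1 in muscle (Oar_v3.1, chromosome 7, 20623544 to 20649127), where this locus held 51822 counts. In both adipose tissues PSME1 had a locus of its own with 0 counts in all 12 libraries, so no fold change is given for it. PSMD13 lay in a region of 20644 bp in muscle and 13265 bp in perirenal adipose tissue. PSMC5 lay in a region of 53590 bp in muscle that also held DDX42, FTSJ3 and SMARCD2, and of 9411 bp in perirenal adipose tissue. PSMC4 was split over 2 loci in perirenal adipose tissue. The sources used here do not say whether the libraries carried strand marking. It is therefore not known whether reads of overlapping genes were told apart by strand. Such genes were PSMB9 with TAP1, PSMA7 with LSM14B and PSMA3 with ARID4A.

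**Figure D1:**
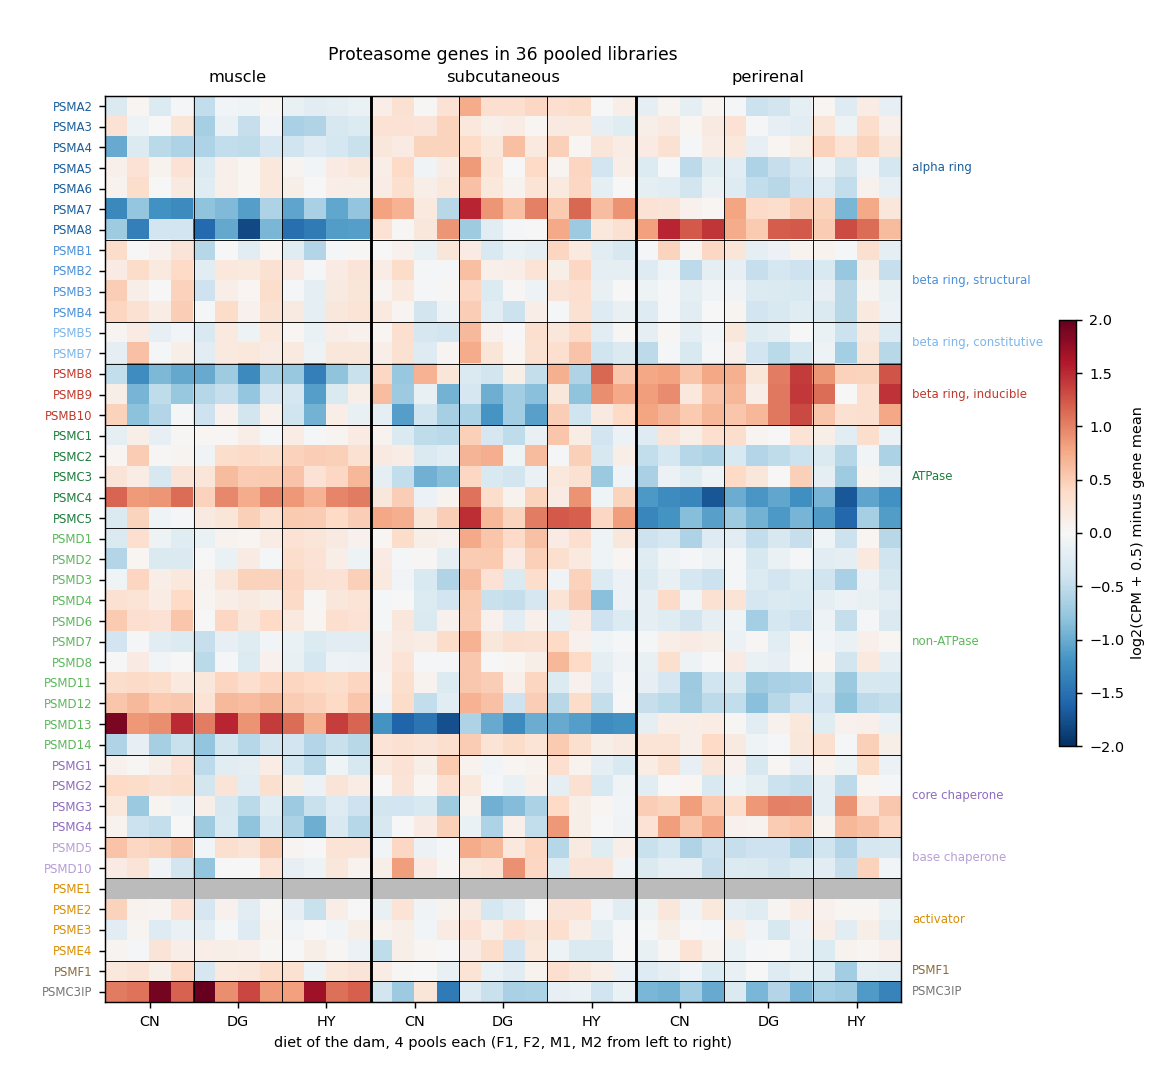
Heat map of the proteasome genes (rows, grouped by role) in 36 pooled libraries (columns, grouped by tissue and maternal diet), each value being the log2 CPM of a gene minus the mean of that gene over all libraries. The inducible core genes PSMB8, PSMB9 and PSMB10 were highest in perirenal adipose tissue, PSMC4 and PSMC5 were lowest there, and PSME1 is greyed because its locus differed between tissues.

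The first question was whether core and regulatory particle genes differed between the tissues. Of the 44 genes, 33 differed between muscle and perirenal adipose tissue at FDR ≤0.05 (edgeR, quasi-likelihood F test, Benjamini-Hochberg adjusted), 22 of them higher in muscle and 11 higher in perirenal adipose tissue. Of all 14565 genes tested 80.3% were called, 39.3% higher in muscle and 40.9% higher in perirenal adipose tissue. Between muscle and subcutaneous adipose tissue 27 were called, 11 higher in muscle and 16 lower, beside 73.1% of all genes (36.6% higher and 36.5% lower). Between subcutaneous and perirenal adipose tissue 31 were called, 24 higher in subcutaneous and 7 lower, beside 67.9% of all genes (32.6% higher and 35.3% lower). The number of proteasome genes called was thus close to the share among all genes, and the counts for muscle include PSME1. Without a scaling factor on the library totals, the median log2 fold change of all genes moved to -0.32, -0.14 and -0.18 in these 3 comparisons, and the splits became 12 higher and 21 lower, 7 higher and 20 lower, and 13 higher and 11 lower.

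In the core particle, the direction between muscle and perirenal adipose tissue was mixed. Of 13 core genes, 6 were higher in muscle and 4 were lower, beside 39.3% and 40.9% of all genes, with a median log2 fold change of 0.11, against -0.03 over all genes. Without a scaling factor the core median became -0.18, which is still above the median of all genes under that scaling. The largest differences were in the alpha ring. PSMA8, an alpha subunit known from testis, was at 0.37 to 1.84 CPM in muscle (median 0.91), 1.35 to 5.10 CPM in subcutaneous (median 2.82) and 3.83 to 8.23 CPM in perirenal adipose tissue (median 6.32). The pools of muscle and perirenal adipose tissue did not overlap, and the log2 fold change was -2.63 ± 0.21 (SE, 12 pools per tissue, edgeR FDR = 5.67e-13). It was -1.57 ± 0.21 for muscle over subcutaneous and -1.05 ± 0.20 for subcutaneous over perirenal adipose tissue. PSMA8 (chromosome 23, 30950156 to 30971514) had as few as 7 counts in a muscle library.

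PSMA7, an alpha ring subunit, lay at chromosome 13, 54362010 to 54377184. It was also lower in muscle, at 2.61 to 4.47 CPM (median 3.41), than in perirenal adipose tissue, at 3.54 to 12.6 CPM (median 9.02). Its log2 fold change was -1.37 ± 0.16 against perirenal (edgeR FDR = 4.52e-09) and -1.83 ± 0.16 against subcutaneous adipose tissue (edgeR FDR = 1.35e-11), although the muscle and perirenal ranges overlapped. PSMA7 was low in all tissues, with 32 counts in the lowest library. Its total in muscle was 790 counts, against 28367 for PSMA6. The region of PSMA7 also held LSM14B, with 17366 counts in muscle and 9067 in perirenal adipose tissue. The part of this overlap in the PSMA7 difference was not tested. PSMA4, another alpha subunit, was lower in muscle as well, with a log2 fold change of -0.67 ± 0.07 against perirenal adipose tissue (edgeR FDR = 9.94e-10). PSMA5, PSMA6, PSMB2, PSMB3 and PSMB4 were higher in muscle, with log2 fold changes of 0.31 to 0.49. With no scaling factor these 5 genes were at 0.01 (PSMB3) to 0.20 (PSMB2), and PSMB2 alone was called (edgeR FDR = 0.022).

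The constitutive catalytic genes had small differences between the tissues. PSMB5, which carries the chymotrypsin-like site, was at 54.3 to 77.1 CPM in muscle, 51.9 to 105 CPM in subcutaneous and 49.8 to 78.3 CPM in perirenal adipose tissue. These ranges overlapped, and the log2 fold change of muscle over perirenal adipose tissue was 0.11 ± 0.09 (edgeR FDR = 0.271), but it was -0.18 with no scaling factor (edgeR FDR = 0.0397), so no direction is given for it. PSMB7, which carries the trypsin-like site, was higher in muscle than in perirenal adipose tissue by 0.36 ± 0.12 (edgeR FDR = 0.00847), although its models differed in length and the difference was 0.07 with no scaling factor (edgeR FDR = 0.537). Subcutaneous adipose tissue was above perirenal in both, by 0.22 ± 0.09 for PSMB5 (edgeR FDR = 0.0438) and 0.42 ± 0.12 for PSMB7 (edgeR FDR = 0.00375). With no scaling factor they were 0.06 for PSMB5 (edgeR FDR = 0.549) and 0.25 for PSMB7 (edgeR FDR = 0.0393). The edgeR FDR of the PSMB5 difference was 0.0538 with pools as a block and 0.0827 with no filter on low counts. Without the 5 subcutaneous pools rich in muscle markers both calls were lost, at 0.03 for PSMB5 (edgeR FDR = 0.859) and 0.21 for PSMB7 (edgeR FDR = 0.232), and the call of PSMB5 was also lost without CN F2, DG F2, DG M2, HY F1, HY F2 or HY M2 (edgeR FDR of up to 0.161).

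The inducible catalytic genes were highest in perirenal adipose tissue. PSMB8, the inducible counterpart of PSMB5, was at 11.0 to 21.3 CPM in muscle (median 16.0), 17.0 to 65.3 CPM in subcutaneous (median 33.2) and 34.8 to 78.2 CPM in perirenal adipose tissue (median 50.2). Muscle and perirenal adipose tissue did not overlap, whereas subcutaneous pools overlapped with both. The gene had the same model in all 3 tissues (chromosome 20, 7273092 to 7280060), and its log2 fold change was -1.71 ± 0.17 for muscle over perirenal (edgeR FDR = 1.55e-10) and -1.07 ± 0.17 for muscle over subcutaneous adipose tissue (edgeR FDR = 1.73e-06). For subcutaneous over perirenal adipose tissue it was -0.63 ± 0.17 (edgeR FDR = 0.0015), and -0.36 without the 5 subcutaneous pools rich in muscle markers (edgeR FDR = 0.0748).

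PSMB9, the counterpart of PSMB6 and a neighbour of PSMB8 (chromosome 20, 7281216 to 7296754 in muscle), was at 4.76 to 11.8 CPM in muscle, 5.26 to 21.0 CPM in subcutaneous and 10.9 to 30.3 CPM in perirenal adipose tissue. Muscle was lower than perirenal adipose tissue (-1.30 ± 0.21, edgeR FDR = 1.88e-06), while muscle and subcutaneous adipose tissue did not pass the test (-0.31 ± 0.21, edgeR FDR = 0.185). Subcutaneous was also lower than perirenal adipose tissue (-0.98 ± 0.21, edgeR FDR = 0.000156). PSMB10, the counterpart of PSMB7 (chromosome 14, 34755252 to 34759434 in muscle), was at 8.03 to 22.1 CPM in muscle and 6.80 to 22.8 CPM in subcutaneous adipose tissue, and at 19.9 to 40.6 CPM in perirenal adipose tissue. Its log2 fold change was -0.91 ± 0.15 for muscle over perirenal (edgeR FDR = 1.46e-06) and -1.14 ± 0.15 for subcutaneous over perirenal adipose tissue (edgeR FDR = 6.82e-08), with a shorter model in subcutaneous adipose tissue. All 3 genes were therefore lower in muscle than in perirenal adipose tissue, also with DESeq2's factors and with no scaling factor.

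The mean log2 level of the inducible genes minus that of the constitutive catalytic genes, which does not depend on the scaling of a library and is compared only between libraries because CPM are not per length, ranged in muscle from -3.80 to -2.28, in subcutaneous from -3.61 to -1.32 and in perirenal adipose tissue from -2.22 to -0.79. Muscle lay below perirenal adipose tissue in all 12 pools, with the nearest pools at -2.28 and -2.22. The models of PSMB7 differed between muscle and perirenal adipose tissue, and those of PSMB10 between subcutaneous and both other tissues. Leukocyte markers were also lower in muscle. The summed level of 14 such genes was 101 to 127 CPM in muscle, 271 to 446 CPM in subcutaneous and 269 to 463 CPM in perirenal adipose tissue, and 10 of 13 tested were lower in muscle than in perirenal adipose tissue, with a median log2 fold change of -1.51. Of 20 genes of interferon response and class I presentation that are not proteasome genes, 12 were lower in muscle, with a median of -1.14. The part of leukocytes in the difference of the inducible genes was not tested.

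**Figure D2:**
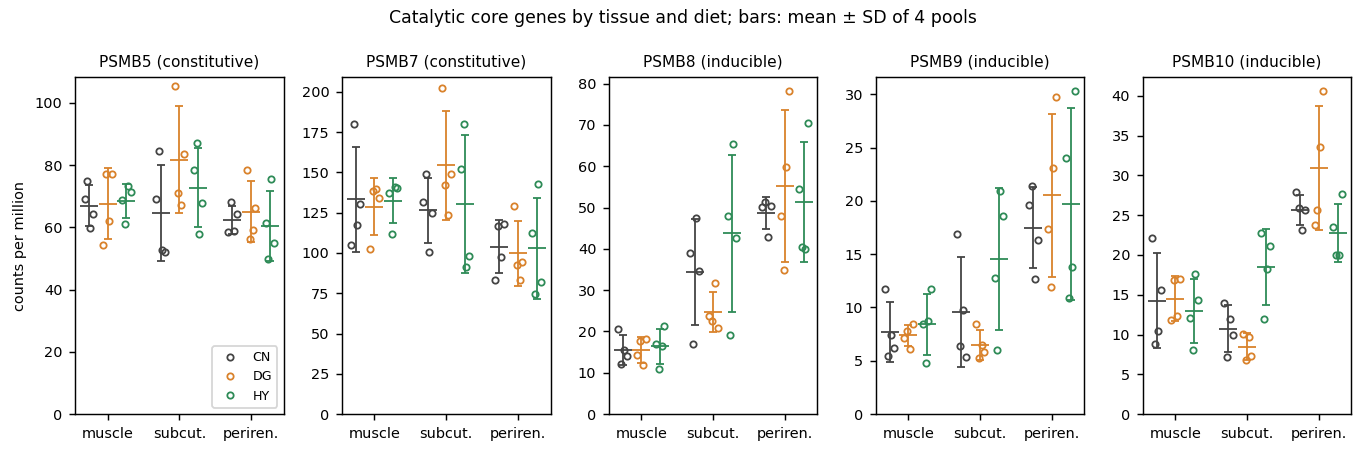
CPM of the constitutive (PSMB5, PSMB7) and inducible (PSMB8, PSMB9, PSMB10) catalytic core genes by tissue, with a point for each pool, coloured by maternal diet, and bars for the mean ± SD of 4 pools. PSMB8 was at 11.0 to 21.3 CPM in muscle and 34.8 to 78.2 CPM in perirenal adipose tissue, while the ranges of PSMB5 overlapped in all 3 tissues.

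With TMM factors, most regulatory particle genes were higher in muscle than in perirenal adipose tissue. Of 16 genes, 11 were higher in muscle and 2 were lower, beside 39.3% and 40.9% of all genes, with a median log2 fold change of 0.51, and of the 11 with like models 7 were higher and 2 lower, with a median of 0.40. Without a scaling factor the median of the 16 genes was 0.21. PSMC3, PSMD1 and PSMD4 were then not called, and PSMC1, PSMD2 and PSMD8 were called lower in muscle. Among the scaffold subunits with like models, PSMD12 was at 105 to 139 CPM in muscle and 47.9 to 66.4 CPM in perirenal adipose tissue, without overlap (log2 fold change 1.10 ± 0.11, edgeR FDR = 1.45e-10). PSMD11 (chromosome 11, 17335713 to 17368642), which helps to hold the lid together, was at 67.4 to 79.3 CPM in muscle, 48.4 to 84.8 CPM in subcutaneous and 34.8 to 52.0 CPM in perirenal adipose tissue. Muscle and perirenal adipose tissue did not overlap here either (0.82 ± 0.08, edgeR FDR = 1.88e-11).

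The ATPases differed by gene. PSMC2 was higher in muscle, at 104 to 154 CPM, than in perirenal adipose tissue, at 70.4 to 105 CPM (0.74 ± 0.10, edgeR FDR = 4.51e-08), and the ranges met at their ends. PSMC1 did not pass the test in any of the 3 tissue comparisons, with log2 fold changes of -0.21 to 0.12. It was, however, called lower in subcutaneous than in perirenal adipose tissue without the 5 pools rich in muscle markers (-0.37, edgeR FDR = 0.0158), without CN F1, DG F1 or HY F1, and with no scaling factor (-0.37, edgeR FDR = 0.00121), which also called it lower in muscle than in perirenal adipose tissue (-0.38, edgeR FDR = 0.000731). PSMC3 was higher in muscle by 0.43 ± 0.12 against perirenal (edgeR FDR = 0.00167) and by 0.58 ± 0.12 against subcutaneous adipose tissue (edgeR FDR = 6.77e-05), with models that differed, and the first difference was 0.14 with no scaling factor (edgeR FDR = 0.229). PSMC4 and PSMC5 had the largest differences, yet both rest on unlike models. PSMC4 was at 46.5 to 76.0 CPM in muscle and 10 to 17.5 CPM in perirenal adipose tissue, where its counts were split over 2 loci (2.16 ± 0.12, edgeR FDR = 6.2e-17). Between muscle and subcutaneous adipose tissue, where its models were alike, it was higher in muscle by 0.53 ± 0.11 (edgeR FDR = 0.000117), and subcutaneous over perirenal adipose tissue gave 1.62 ± 0.12. PSMC5 was at 54.0 to 94.9 CPM in muscle, 78.2 to 184 CPM in subcutaneous and 21.8 to 41.5 CPM in perirenal adipose tissue. Its models were alike in both adipose tissues, and it was higher in subcutaneous in every pool (1.88 ± 0.12, edgeR FDR = 2.53e-15).

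PSMD13, a lid subunit, was at 254 to 577 CPM in muscle, 45.4 to 101 CPM in subcutaneous and 132 to 180 CPM in perirenal adipose tissue, without overlap. The log2 fold change of muscle over subcutaneous adipose tissue was 2.44 ± 0.11 (edgeR FDR = 9.54e-19), that of muscle over perirenal was 1.22 ± 0.11 and that of subcutaneous over perirenal was -1.22 ± 0.11. In subcutaneous adipose tissue a neighbouring locus without a symbol held 8534 counts, and in muscle it held 0, and the part of this locus in the difference was not tested. PSMD14, the deubiquitinase of the lid, went the other way with like models. It was at 29.1 to 45.3 CPM in muscle, 55.4 to 73.0 CPM in subcutaneous and 47.9 to 71.2 CPM in perirenal adipose tissue, so that muscle lay below both. Its log2 fold change was -0.81 ± 0.07 against subcutaneous (edgeR FDR = 1.3e-11) and -0.68 ± 0.07 against perirenal adipose tissue (edgeR FDR = 3.11e-10). PSMD7, which pairs with PSMD14, was lower in muscle as well, with log2 fold changes of -0.45 and -0.22.

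**Figure D3:**
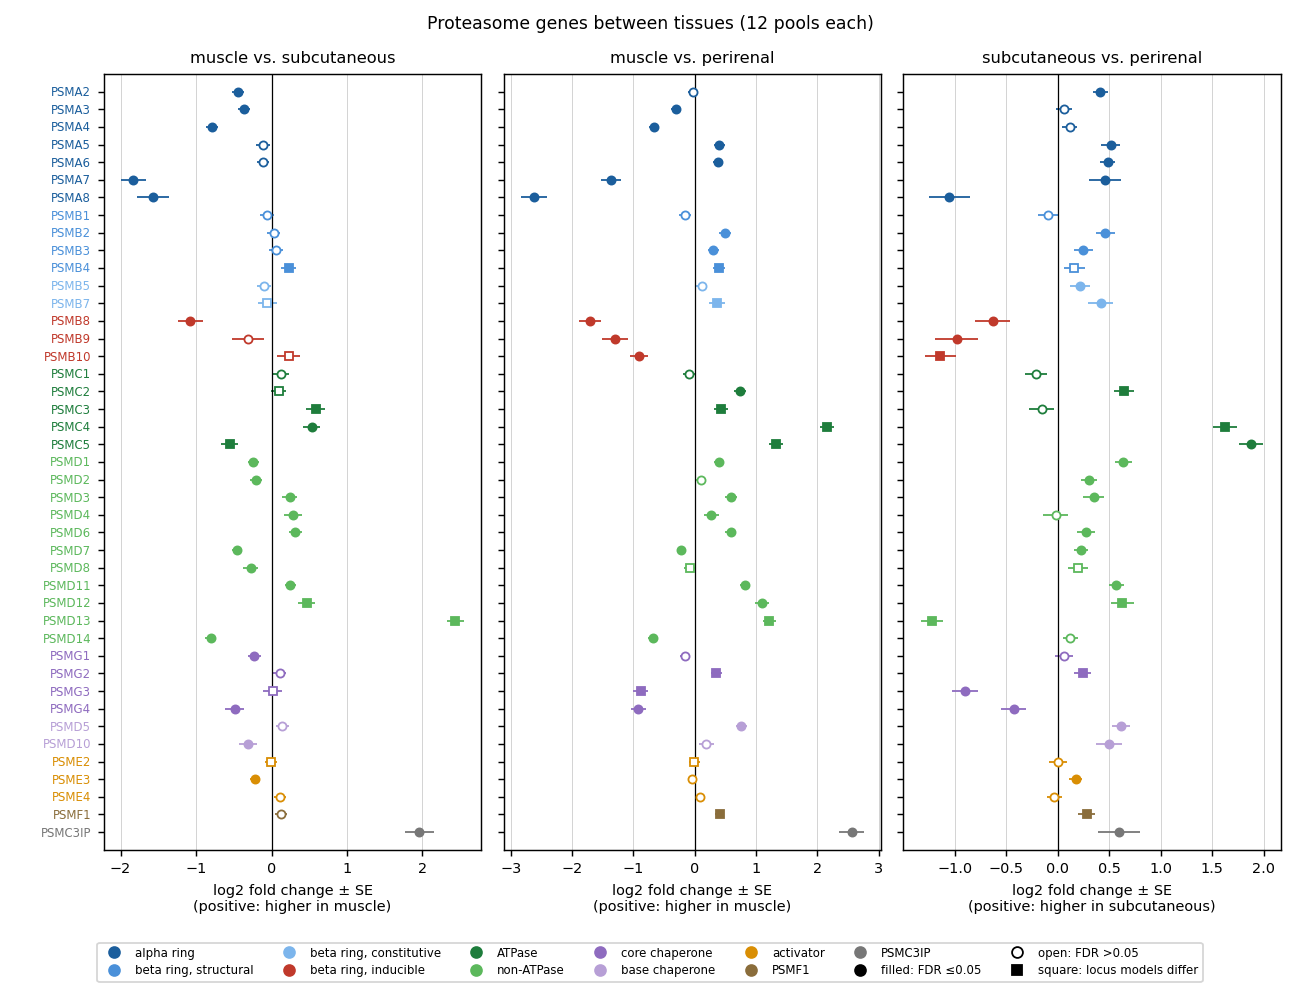
Log2 fold changes between tissues with their SE (12 pools per tissue), coloured by role, in 3 panels for muscle over subcutaneous, muscle over perirenal and subcutaneous over perirenal adipose tissue; filled symbols mark FDR ≤0.05, squares mark locus models that differ, and PSME1 is not plotted. PSMB8, PSMB9 and PSMB10 lay on the negative side in both comparisons with perirenal adipose tissue. With TMM factors, 11 of 16 regulatory particle genes were called higher in muscle than in perirenal adipose tissue.

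Against subcutaneous adipose tissue, the 16 regulatory particle genes split into 8 higher and 6 lower in muscle, with a median of 0.18, while 5 of 13 core genes were lower and 1 was higher, with a median of -0.11. Over all genes 36.6% were higher and 36.5% lower. With no scaling factor the regulatory and core medians were 0.05 and -0.24, and PSMD3, PSMD4 and PSMD11 were not called in this comparison. Without the 5 subcutaneous pools rich in muscle markers, 26 genes were called between muscle and subcutaneous adipose tissue, 14 higher and 12 lower, with 9 regulatory particle genes higher and 3 lower and 1 core gene higher and 5 lower. Between subcutaneous and perirenal adipose tissue, 8 of 13 core and 10 of 16 regulatory particle genes were higher in subcutaneous adipose tissue, with 1 lower in each, and the medians were 0.25 and 0.29, beside 32.6% of all genes higher and 35.3% lower. PSMD1, the largest scaffold subunit, was among them (0.64 ± 0.08, edgeR FDR = 1.88e-08), and so was PSMC2 (0.64 ± 0.10, edgeR FDR = 1.02e-06). Without the 5 pools, 21 genes were called in that comparison instead of 31, 14 of them higher and 7 lower, and the core and regulatory particle had 5 and 7 genes higher.

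Shares of all genes called without the 5 pools are not given here, so the counts without them have no background. PSMA7, PSMG4, PSMF1 and PSME3 then lost their calls for subcutaneous over perirenal adipose tissue, at 0.21, -0.29, 0.19 and 0.18. PSMB3, PSMD2, PSMD3, PSMD6, PSMG2 and PSMC3IP lost this call as well, besides PSMB5, PSMB7 and PSMB8 described above. For muscle over subcutaneous adipose tissue, PSMD1, PSMD2, PSMD8 and PSMG1 lost their calls. Other genes named for these comparisons had the following log2 fold changes without the 5 pools. For muscle over subcutaneous adipose tissue, PSMA8 was at -1.78, PSMA7 at -1.59, PSMB8 at -1.36, PSMD14 at -0.81, PSMD7 at -0.43 and PSME3 at -0.23, and PSMC3 was at 0.74, PSMC4 at 0.80 and PSMD13 at 2.53. For subcutaneous over perirenal adipose tissue, PSMA8 was at -0.86, PSMB9 at -0.85, PSMB10 at -0.98, PSMD13 at -1.33 and PSMG3 at -1.03, and PSMC2 was at 0.36, PSMC4 at 1.34, PSMC5 at 1.65 and PSMD1 at 0.52. All of these stayed past FDR ≤0.05 (edgeR), with the direction they had in all pools. PSMC2 was also called for muscle over subcutaneous adipose tissue then, at 0.37 (edgeR FDR = 0.00334), against 0.09 with all pools.

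The balance of regulatory to core genes was also computed within each library from the 9 regulatory and 11 core genes with like models, as the difference of their mean log2 levels after each gene was centred on its mean over all libraries. It was 0.06 to 0.52 in muscle (median 0.28), -0.28 to 0.08 in subcutaneous (median -0.12) and -0.25 to -0.12 in perirenal adipose tissue (median -0.18). All 12 muscle pools lay above all perirenal pools. PSMA7 and PSMA8, however, were the core genes with the fewest counts and the largest differences. Without them the difference was -0.13 to 0.31 in muscle (median 0.08) and -0.12 to 0.02 in perirenal adipose tissue (median -0.03), and the ranges overlapped. These 2 genes were singled out after their values had been seen.

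Of the assembly chaperones, PSMG3 and PSMG4, which act together in building the alpha ring, were both higher in perirenal adipose tissue with all pools. PSMG4 was at 17.4 to 36.7 CPM in muscle, 22.5 to 64.0 CPM in subcutaneous and 36.4 to 62.3 CPM in perirenal adipose tissue (muscle over perirenal -0.92 ± 0.12, edgeR FDR = 4.8e-08). For subcutaneous over perirenal adipose tissue PSMG4 was at -0.43 (edgeR FDR = 0.00276). Without the subcutaneous pools rich in muscle markers PSMG4 was at -0.29, and this call was lost. PSMG3 differed by -0.90 ± 0.13 between subcutaneous and perirenal adipose tissue (edgeR FDR = 2.26e-07). PSMD5, a chaperone of the regulatory particle, went the opposite way, at 41.7 to 64.9 CPM in muscle and 28.3 to 34.5 CPM in perirenal adipose tissue, without overlap (0.76 ± 0.08, edgeR FDR = 9.78e-10).

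The activators other than PSME1 had small differences between the tissues. PSME2, the partner of PSME1 in PA28, shared its locus with EMC9 and was at 125 to 235 CPM in muscle, 134 to 206 CPM in subcutaneous and 144 to 200 CPM in perirenal adipose tissue, with log2 fold changes of -0.01 to 0.00 that turned with the scaling. With no scaling factor it was lower in muscle than in perirenal adipose tissue (-0.30, edgeR FDR = 0.000289). PSME4, the activator PA200, did not pass the test in any comparison (-0.03 to 0.11). Without the 5 pools rich in muscle markers, however, it was called for muscle over subcutaneous (0.29, edgeR FDR = 0.00376) and for subcutaneous over perirenal adipose tissue (-0.22, edgeR FDR = 0.028), and with no scaling factor it was called lower in muscle than in perirenal adipose tissue (-0.21, edgeR FDR = 0.0137). PSME3, the nuclear PA28 gamma, was lower in muscle than in subcutaneous adipose tissue (-0.21 ± 0.07, edgeR FDR = 0.00476). PSMF1, a regulator that inhibits the core in vitro, was at 52.1 to 86.4 CPM in muscle and 40.7 to 65.4 CPM in perirenal adipose tissue (0.40 ± 0.08, edgeR FDR = 2.51e-05), and the difference was 0.11 with no scaling factor (edgeR FDR = 0.152). PSMC3IP was at 4.60 to 11.2 CPM in muscle and 0.638 to 1.87 CPM in perirenal adipose tissue (2.56 ± 0.20, edgeR FDR = 2.58e-13), and its log2 fold change over subcutaneous adipose tissue was 1.96 ± 0.19.

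A list of 36 genes that work with the proteasome (shuttle factors, ubiquitin ligases and deubiquitinases at the proteasome, maturation and transcription factors) had 30 members with counts in all 3 tissues. Of these, 15 were higher in muscle than in perirenal adipose tissue and 11 were lower, 10 were higher and 10 lower against subcutaneous adipose tissue, and 17 were higher and 7 lower in subcutaneous than in perirenal adipose tissue. The shares of all genes were 39.3% and 40.9%, 36.6% and 36.5%, and 32.6% and 35.3% in the same order. NFE2L1, the transcription factor that raises proteasome genes when proteasome activity falls, was higher in muscle than in perirenal adipose tissue (0.79, edgeR FDR = 0.000988). This was summed over its 2 loci, with models that differed. For 1 locus per tissue, the CN pools overlapped, at 25.5 to 66.0 CPM in muscle and 27.9 to 62.0 CPM in perirenal adipose tissue. The DG and HY pools were at 75.2 to 145 CPM in muscle and 24.4 to 80.9 CPM in perirenal adipose tissue. POMP, the maturation factor of the core, was lower in muscle, with log2 fold changes of -0.34 against perirenal (edgeR FDR = 0.00106) and -0.35 against subcutaneous adipose tissue (edgeR FDR = 0.000839), and with models that differed. The second difference was -0.21 without the 5 pools (edgeR FDR = 0.0789). ADRM1, a ubiquitin receptor of the regulatory particle, was lower in muscle than in perirenal adipose tissue (-0.31, edgeR FDR = 0.00396) and had like models, but the call was lost without DG M1 (edgeR FDR = 0.0545). Several partner genes with large changes in a tissue comparison had models that differed in that comparison. They were AKIRIN2, UBA6 and UBQLN1 for muscle over subcutaneous (-3.54, -1.61 and -1.34), AKIRIN2 and NGLY1 for muscle over perirenal (-3.35 and -2.18), and UBQLN1, TPP2 and NGLY1 for subcutaneous over perirenal adipose tissue (3.00, 1.81 and -1.29). With the 5 pools left out, those of muscle over subcutaneous were -3.42, -1.70 and -1.34 and those of subcutaneous over perirenal adipose tissue 2.99, 1.75 and -1.13.

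The second question was whether the diets of the dam changed these genes within a tissue. At FDR ≤0.05, edgeR's quasi-likelihood test called 0 proteasome genes in each of the 9 diet comparisons. Beside these counts, the share of all loci called in muscle was 1.01% (CN vs. DG) or 2.69% (CN vs. HY), beside 0.115% (CN vs. DG) in perirenal adipose tissue and 0% in the other 6 comparisons. The proteasome genes with an unadjusted p under 0.05 numbered, in the order CN with DG, CN with HY, DG with HY, 7, 10 and 0 in muscle, 6, 4 and 9 in subcutaneous, and 1, 0 and 3 in perirenal adipose tissue. The share of all loci at this unadjusted cut is not given here, so these counts are not read as an excess. DESeq2 called 2 genes for CN vs. HY in muscle and 3 for DG vs. HY in subcutaneous adipose tissue, and 0 in the other 7 comparisons. The shares of all loci called by DESeq2 are not given here, and those above are of edgeR. The differences were small. The median absolute log2 fold change of the proteasome genes was 0.186 for CN vs. HY in muscle, against 0.244 over all loci, and 0.281 for DG vs. HY in subcutaneous adipose tissue, against 0.359.

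At FDR ≤0.20, 6 of 44 genes passed for CN vs. HY in muscle, beside 16.0% of all loci. PSMA3, an alpha ring subunit (chromosome 7, 67456649 to 67556782), was at 129, 97.9, 106 and 125 CPM in the CN pools, 65.9, 96.1, 76.0 and 101 CPM in the DG pools and 66.8, 69.4, 84.3 and 87.2 CPM in the HY pools. All CN pools lay above all HY pools, and the log2 fold change of HY over CN was -0.56 ± 0.15 (edgeR FDR = 0.0616; DESeq2 FDR = 0.0145). PSMA3 was also the 1 gene at FDR ≤0.20 for CN vs. DG, beside 7.06% of all loci (-0.43 ± 0.15, edgeR FDR = 0.19), where CN and DG pools overlapped. That count was 4 without CN F2, 3 without DG M2 and 0 without CN F1, CN M1, CN M2 or DG M1, with no shares of all loci given for these omissions. The next genes for CN vs. DG were PSMC3 (0.38, edgeR FDR = 0.223) and PSME2 (-0.34, edgeR FDR = 0.279).

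Among regulatory particle genes in muscle, PSMD2, a scaffold subunit of the base, was at 93.2, 144, 115 and 115 CPM in the CN pools and 179, 172, 154 and 131 CPM in the HY pools. CN F2 lay above the lowest HY pool, and the log2 fold change was 0.45 ± 0.14 (edgeR FDR = 0.0944; DESeq2 FDR = 0.0436). PSMC5 showed the same order, at 54.0, 90.2, 62.0 and 65.1 CPM in the CN pools and 94.9, 93.5, 86.7 and 92.4 CPM in the HY pools (0.45 ± 0.14, edgeR FDR = 0.0997). PSMC3 was at 155, 143, 104 and 156 CPM in the CN pools and 193, 160, 174 and 206 CPM in the HY pools, without overlap (0.40 ± 0.14, edgeR FDR = 0.135). In both PSMD2 and PSMC5 the pool CN F2 was the highest of its diet.

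Chaperone genes were among the 6 as well. PSMG1 was at 67.6, 64.8, 68.5 and 77.8 CPM in the CN pools and 49.8, 43.7, 60.0 and 50.6 CPM in the HY pools (-0.44 ± 0.14, edgeR FDR = 0.11). PSMD5 was at 64.5, 58.0, 59.8 and 64.9 CPM in the CN pools and 45.2, 43.4, 52.5 and 51.9 CPM in the HY pools (-0.35 ± 0.12, edgeR FDR = 0.135). In both genes all HY pools lay below all CN pools. Both were named for passing FDR ≤0.20 in this comparison, so the separation is no further support. Without CN F2, edgeR called 4 genes at FDR ≤0.05 (PSMA3, PSMC5, PSMD1 and PSMD2), beside 6.66% of all loci, and 14 at FDR ≤0.20, beside 20.3%. Of the other omissions, those of HY F1 (1 gene), CN M2 and HY F2 (2 genes each) and CN F1 (3 genes) lowered the count at FDR ≤0.20. Total counts were 13749762 to 19387181 in the CN pools, 20370147 to 29625146 in the DG pools and 19071024 to 22831074 in the HY pools of muscle, and the part of depth in these differences was not tested.

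By group, the median log2 fold changes of HY over CN in muscle were -0.08 for the core, 0.09 for the inducible core, 0.05 for the regulatory particle and -0.34 for the chaperones. For DG over CN they were -0.15, 0.00, 0.02 and -0.27. DG and HY did not separate in muscle, with 0 loci of 18573 called at FDR ≤0.20 and 0 proteasome genes at an unadjusted p under 0.05. The smallest p-values there belonged to PSMD1, PSMC2 and PSMD2, each with a log2 fold change of 0.18.

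Among the partner genes in muscle, NFE2L1 and UBE3C passed FDR ≤0.05 for CN vs. HY. NFE2L1 was at 25.5, 66.0, 41.4 and 37.6 CPM in the CN pools, 87.8, 77.3, 127 and 75.2 CPM in the DG pools and 136, 145, 90.6 and 76.7 CPM in the HY pools. All CN pools lay below all DG and HY pools, with CN F2 the nearest. The log2 fold change was 1.40 ± 0.28 for HY over CN (edgeR FDR = 0.0227) and 1.10 ± 0.28 for DG over CN (edgeR FDR = 0.077), for 1 of the 2 loci that carry this name. UBE3C, a ubiquitin ligase at the proteasome, was at 18.6, 33.3, 23.3 and 19.1 CPM in the CN pools and 52.1, 47.3, 38.7 and 34.5 CPM in the HY pools (0.88 ± 0.19, edgeR FDR = 0.0273). For CN vs. HY, the calls of NFE2L1 and UBE3C were lost without CN F1, CN M1, CN M2, HY F1 or HY F2 (edgeR FDR of up to 0.0837 and 0.109).

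**Figure D4:**
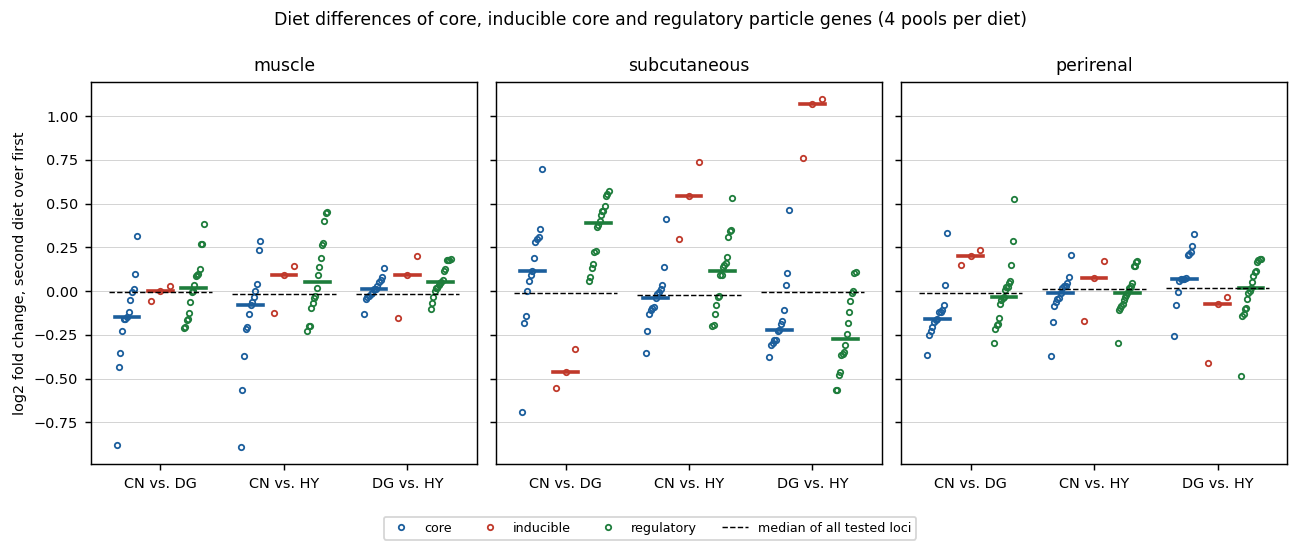
Log2 fold change of each core, inducible core and regulatory particle gene (points) in the 9 diet comparisons, second diet over first, with 1 panel per tissue and 4 pools per diet. In subcutaneous adipose tissue all 16 regulatory particle genes lay above 0 for CN vs. DG and 13 of 16 lay below 0 for DG vs. HY, and no gene passed FDR ≤0.05.

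In subcutaneous adipose tissue, 6 of 43 genes passed FDR ≤0.20 for DG vs. HY, beside 10.8% of all loci. The 3 inducible genes had positive log2 fold changes for HY over DG, none of them past FDR ≤0.05. PSMB10 was at 14.0, 7.14, 11.9 and 9.92 CPM in the CN pools, 10.1, 6.80, 9.69 and 7.30 CPM in the DG pools and 22.8, 12.0, 18.2 and 21.2 CPM in the HY pools. All HY pools lay above all DG pools, and the log2 fold change of HY over DG was 1.07 ± 0.25 (edgeR FDR = 0.108; DESeq2 FDR = 0.00841). With the replicate number as a block it was 1.06 (edgeR FDR = 0.0396). PSMB9 was at 8.49, 5.26, 6.52 and 5.81 CPM in the DG pools and 12.8, 5.96, 21.0 and 18.5 CPM in the HY pools, so that HY F2 lay among the DG pools (1.10 ± 0.42, edgeR FDR = 0.198). PSMB8 was at 23.8, 22.5, 31.8 and 20.7 CPM in the DG pools and 48.0, 19.0, 65.3 and 42.6 CPM in the HY pools, and it did not pass FDR ≤0.20 (0.76).

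The pool HY F2 was the lowest HY pool for all 3 inducible genes, and it was also the HY pool richest in muscle markers, at 135829 CPM, against 1076 CPM in HY F1, 3906 CPM in HY M1 and 19494 CPM in HY M2. The pools DG F1, DG F2 and DG M2 were at 158753, 71277 and 96805 CPM, and DG M1 was at 1166 CPM. Without the 5 pools rich in muscle markers the median log2 fold change of the 3 inducible genes for HY over DG was 1.07 again, with 3 of 3 positive, but only 1 DG pool was then left and 0 proteasome genes passed FDR ≤0.20. Leukocyte markers were positive in 10 of 11 genes for HY over DG, with a median of 0.62, and interferon and class I genes in 17 of 22, with a median of 0.43, without the signs over all loci beside them. The part of these cells in the difference was not tested.

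Most regulatory particle genes had fold changes of the opposite sign for HY over DG, with no gene past FDR ≤0.05. For DG over CN all 16 were positive, with a median log2 fold change of 0.39, and for HY over DG 13 of 16 were negative, with a median of -0.28. The signs over all loci in these comparisons are not given here. PSMD11 was at 84.8, 82.4, 62.7 and 78.9 CPM in the DG pools and 48.5, 61.9, 48.6 and 56.9 CPM in the HY pools, without overlap (-0.57 ± 0.17, edgeR FDR = 0.145; DESeq2 FDR = 0.0394). PSMD1 was at 159, 138, 123 and 142 CPM in the DG pools and 106, 119, 88.6 and 110 CPM in the HY pools (-0.46 ± 0.15, edgeR FDR = 0.159; DESeq2 FDR = 0.0461). The chaperone PSMD5 was at 72.8, 68.9, 50.4 and 58.4 CPM in the DG pools and 28.9, 49.2, 36.5 and 47.5 CPM in the HY pools (-0.67 ± 0.21, edgeR FDR = 0.154). In these 3 genes every DG pool lay above every HY pool. They were named for passing FDR ≤0.20 in this comparison, so the separation is no further support. PSMG3 was at 79, 38.6, 41.1 and 48.8 CPM in the DG pools and 99.5, 82.1, 77.9 and 72.9 CPM in the HY pools, with DG F1 inside the HY range (0.62 ± 0.22, edgeR FDR = 0.177). The count of 6 genes at FDR ≤0.20 rested on single pools: it was 22 without HY F2 (beside 30.2% of all loci), 13 without DG M1 (beside 21.4%), 2 without DG F1 and 0 without DG F2, DG M2, HY F1, HY M1 or HY M2. Without HY F2, PSMB10 passed FDR ≤0.05 (edgeR FDR = 0.0423).

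The muscle markers had fold changes of the same signs as the regulatory particle. They were positive in 16 of 16 genes for DG over CN (median 1.61) and negative in 16 of 16 for HY over DG (median -0.90). Without the 5 pools rich in muscle markers, 10 of 16 regulatory particle genes were positive for DG over CN, with a median of 0.02, and 9 of 16 for HY over DG, with a median of 0.07. With the muscle marker level as a covariate, 15 of 16 were positive for DG over CN, with a median of 0.30, and the median for HY over DG was -0.13. The 3 genes with the smallest p for CN vs. DG were PSMD13 (0.56 ± 0.17, edgeR FDR = 0.26), PSMD2 (0.46, edgeR FDR = 0.269) and PSMD1 (0.44, edgeR FDR = 0.273). PSMD13 was at 67.6, 50.9, 56.1 and 45.4 CPM in the CN pools and 101, 77.0, 64.3 and 77.7 CPM in the DG pools, which overlapped. PSMC2 was at 174, 181, 103 and 169 CPM in the DG pools, with the low value in DG M1, and at 106, 153, 87.5 and 119 CPM in the HY pools (HY over DG -0.48). For CN vs. HY, PSMB10 had the smallest p (0.74 ± 0.25, edgeR FDR = 0.944), followed by PSMA3 and PSMG3 (-0.35 and 0.53).

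**Figure D5:**
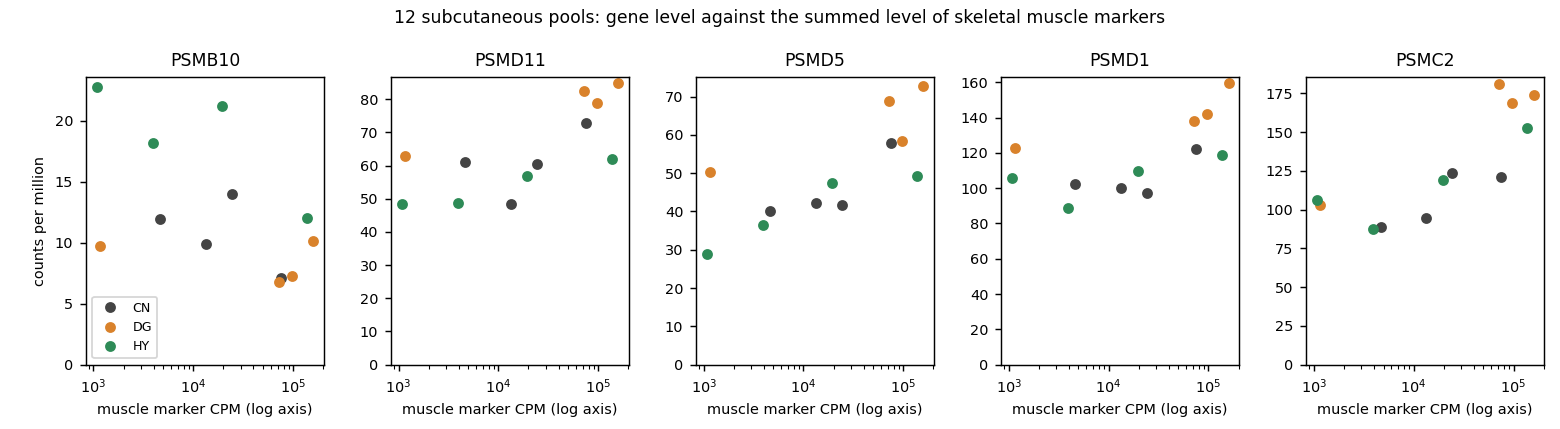
CPM of PSMB10, PSMD11, PSMD5, PSMD1 and PSMC2 (1 panel each) in the 12 subcutaneous pools (points, coloured by maternal diet) against the summed CPM of 16 skeletal muscle markers on a log axis. HY F2, at 135829 CPM of muscle markers, was the lowest HY pool for PSMB10 and the highest for PSMD11, PSMD5, PSMD1 and PSMC2, and 3 of 4 DG pools lay at 71277 CPM or more.

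In perirenal adipose tissue, 0 of 44 loci passed FDR ≤0.20 in any of the 3 comparisons, beside 1.87% of all loci for CN vs. DG and 0% for the others. PSMC3, an ATPase, had the smallest p for CN vs. DG, at 82.4, 119, 110 and 121 CPM in the CN pools and 171, 153, 130 and 181 CPM in the DG pools, without overlap (0.53 ± 0.17, edgeR FDR = 0.282). It was at 114, 78.9, 135 and 118 CPM in the HY pools, which overlapped with both (HY over DG -0.48, edgeR FDR = 0.399). PSMG4 and PSMD4 followed for CN vs. DG (-0.34 and -0.30), PSMD4, PSMA4 and PSMD10 had the smallest p for CN vs. HY (-0.30, 0.21 and 0.25), and PSMA4 and PSMB10 followed PSMC3 for DG vs. HY (0.33 and -0.41). The medians of the core and the regulatory particle were -0.16 and -0.03 for DG over CN, -0.01 and -0.01 for HY over CN, and 0.07 and 0.02 for HY over DG.

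No activator passed the test between diets, and neither did PSMF1. Their log2 fold changes ranged from -0.34 for PSME2 in muscle and PSME4 in subcutaneous adipose tissue to 0.26 for the merged locus of PSME1 in muscle, and none passed FDR ≤0.20 (edgeR). The constitutive catalytic genes PSMB5 and PSMB7 had log2 fold changes of -0.05 to 0.05 in muscle, -0.08 to 0.07 in perirenal and -0.29 to 0.36 in subcutaneous adipose tissue. PSMC1, PSMC2 and PSMC4 did not pass FDR ≤0.20 in any diet comparison either.

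Whether the effect of the diet differed between tissues was tested directly, as an interaction in the fit of all 36 libraries. At FDR ≤0.05 edgeR called 0 of 44 proteasome genes, beside 0.206% of all genes. DESeq2 called 3, and 6 had an unadjusted p under 0.05 (edgeR), with no share of all genes given for either. At FDR ≤0.20, 4 were called, beside 6.91% of all genes. These were PSMB10 (edgeR FDR = 0.103), PSMD5 (edgeR FDR = 0.128), PSMG3 (edgeR FDR = 0.157) and PSMD11 (edgeR FDR = 0.172), the genes that stood out between DG and HY in subcutaneous adipose tissue. Without the 5 subcutaneous pools rich in muscle markers, which left 1 subcutaneous DG pool, 0 genes passed FDR ≤0.20.

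The spread between pools of a diet was smaller for proteasome genes than for genes as a whole. The median SD of log2 CPM was 0.192 against 0.232 in muscle, 0.283 against 0.355 in subcutaneous and 0.202 against 0.266 in perirenal adipose tissue. The median level of the proteasome genes was 80.3, 69.1 and 61.9 CPM in the 3 tissues, against 19.7, 17.7 and 18.0 CPM for all genes. For the 3 inducible genes the SD was 0.410, 0.585 and 0.367.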

How the data were processed

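The 36 libraries were made from pooled fetal RNA of longissimus dorsi muscle and of subcutaneous and perirenal adipose tissue. The read counts per locus are raw counts the authors deposited, 1 table per library, without normalization. Per the submitters' processing notes, TopHat2 2.0.4, Cufflinks 2.1.1 and HTSeq were used with Oar_v3.1. Transcripts were assembled separately in each tissue, and the counting mode and strand setting are not given in the sources used here.

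Counts were analysed with edgeR 4.0.16 in R 4.3.3 (limma 3.58.1). Loci were filtered with filterByExpr (minimum count 10, minimum total 15), scaled by TMM and compared by the robust quasi-likelihood F test with Benjamini-Hochberg adjustment over all loci tested (18573 for muscle, 18008 for subcutaneous, 18246 for perirenal adipose tissue). Diets were compared within each tissue, in 1 fit of its 12 pools. Tissues were compared over 14565 gene names in 1 fit of the 36 libraries, averaged over diets. A fold change is the second diet over the first and the first tissue over the second. Values in CPM use the TMM library sizes of the joint fit. An SE is the absolute log2 fold change over the square root of F and is approximate. Tables were joined in Python 3.11.15 with pandas 2.3.3 and numpy 2.4.6, and figures drawn with matplotlib 3.10.9.

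The scripts were tested on simulated counts with known changes. Alternatives were DESeq2 1.42.0 (its size factors and test), RLE factors, no filter, loci with 1 name, replicate blocks, a muscle marker covariate and each pool left out. Added after the values were seen were library totals with no factor, the omission of 5 subcutaneous pools and genes with like models.

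The same pools of fetuses gave the 3 tissues, as the study's list of pools states, so the pool was a block in an alternative tissue fit, while the main tissue fit had no block. Deviations from the group means correlated at a mean of 0.126 (muscle and perirenal), 0.0891 (muscle and subcutaneous) and 0.0443 (both adipose tissues) for the same pool, against -0.0418, -0.0282 and -0.0147 for other pools. Between diets the numbers are shared only by sex and name.

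Named genes were the 3 with the smallest p of each diet comparison, those past FDR ≤0.20, the 4 largest called changes in each direction between tissues, the catalytic, ATPase and activator genes in every tissue comparison, with others where a group is described. The genes and lists were chosen with earlier results of these data known. A gene of the partner list is not reported here. No sequences are given.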

Additional observations from a re-analysis of the deposited data

Results flagged for a closer look

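Of 264 groups of 4 pools of a tissue and diet, over 30 genes, 18 had a pool that stood apart from the other 3 by Dixon's test, and chance flags about 1 in 20 groups. All values below are CPM.

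In muscle, the pool CN F2 stood above the other CN pools for PSMA7 (3.96 against 2.61 to 2.80) and for PSMC2 (154 against 111 to 113), and CN M1 for PSMC3IP (10.4 against 5.42 to 6.04). The pool DG F1 lay below the other DG pools for PSMB7 (103 against 134 to 140) and for PSMC2 (104 against 139 to 142). HY F2 was low for PSMB7 (112 against 137 to 141).

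In subcutaneous adipose tissue, DG M1, the DG pool with the least muscle marker RNA, lay below the other DG pools for PSMC2 (103 against 169 to 181) and PSMD2 (158 against 197 to 203). CN F2, the CN pool with the most muscle marker RNA, lay above the others for PSMD10 (42.3 against 23.9 to 26.4) and PSMD5 (57.9 against 40 to 42.1). DG F1 was high for PSMD4 (161 against 80.1 to 88.0), and HY F1 for PSMG4 (64.0 against 32.9 to 37.6).

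In perirenal adipose tissue, CN M1 was low for PSMB8 (42.9 against 50.1 to 51.4) and high for PSMG3 (135 against 103 to 108). CN F1 was low for PSMD13 (135 against 169 to 173) HY F2 for PSMF1 (40.7 against 56.0 to 57.6) and HY F1 for PSME4 (86.5 against 108 to 112). DG F1 was high for PSMD4 (135 against 88.0 to 91.1), the gene for which DG F1 stood apart in subcutaneous adipose tissue too.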

How the results depend on the processing

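For the genes of the tissue comparisons that were checked one by one, no change called at FDR ≤0.05 turned under the alternatives tried. Not every gene was checked in this way. PSMD4, called higher in muscle than in perirenal adipose tissue with TMM factors, became -0.022 with no scaling factor (edgeR FDR = 0.848). Changes of the checked genes that were not called did turn. With no scaling factor the log2 fold changes became -0.0058 for PSMC1, -0.039 for PSMC2, -0.028 for PSME4 and -0.019 for PSMF1 (muscle over subcutaneous), -0.18 for PSMB5 and -0.21 for PSME4 (muscle over perirenal, both then called) and -0.16 for PSME2 (subcutaneous over perirenal). With RLE factors and with DESeq2, PSME2 became 0.0036 and 0.0034 (muscle over subcutaneous) and 0.050 and 0.050 (muscle over perirenal), PSME3 0.017 and 0.016 (muscle over perirenal) and PSME4 0.012 and 0.012 (subcutaneous over perirenal). With no filter PSME2 became 0.0072 (muscle over subcutaneous) and -0.018 (subcutaneous over perirenal). The omission of the 5 pools rich in muscle markers gave 0.075 for PSMB5, 0.15 for PSMB7 and 0.092 for PSME2 (muscle over subcutaneous), and -0.11 for PSME2 (subcutaneous over perirenal). With 1 pool left out, muscle over subcutaneous ranged from -0.11 to 0.035 for PSMB7 and -0.056 to 0.049 for PSME2, muscle over perirenal from -0.070 to 0.026 for PSME3 and -0.048 to 0.081 for PSME2, and subcutaneous over perirenal from -0.065 to 0.079 for PSME4 and -0.047 to 0.087 for PSME2. The core median for muscle over perirenal adipose tissue changed sign with no scaling factor (0.11 and -0.18). Between tissues, the number of proteasome genes called was 27, 33 and 31 and ranged from 23 to 27 (muscle vs. subcutaneous), 32 to 34 (muscle vs. perirenal) and 27 to 35 (subcutaneous vs. perirenal) when 1 pool was left out. For diets at FDR ≤0.05, where edgeR called 0 genes, leaving out 1 pool gave 0 to 4 for CN vs. HY in muscle, 0 to 1 for DG vs. HY in subcutaneous adipose tissue, 0 to 2 for the interaction and 0 to 0 elsewhere. At FDR ≤0.20 it gave 0 to 4 (CN vs. DG) and 1 to 14 (CN vs. HY) in muscle, 0 to 9, 0 to 1 and 0 to 22 (CN vs. DG, CN vs. HY, DG vs. HY) in subcutaneous adipose tissue, 0 to 7 for the interaction and 0 to 0 elsewhere. The 9 genes of CN vs. DG in subcutaneous adipose tissue came without DG M1, and the 7 of the interaction without HY F2. DESeq2 called 2 genes for CN vs. HY in muscle, 3 for DG vs. HY in subcutaneous adipose tissue and 3 for the interaction at FDR ≤0.05. At FDR ≤0.20 it called 2 for CN vs. DG in muscle, 4 for CN vs. DG in subcutaneous adipose tissue, 1 for CN vs. DG in perirenal adipose tissue and 8 for the interaction. With no filter on low counts, FDR ≤0.20 was passed by 0 genes for CN vs. DG in muscle, 1 for DG vs. HY in subcutaneous adipose tissue and 2 for the interaction, and with no scaling factor by 2 for the interaction. The muscle marker covariate gave 6 genes for CN vs. DG in subcutaneous adipose tissue. Without the 5 pools rich in muscle markers the counts were 0 for DG vs. HY and 0 for the interaction. Shares of all loci under these alternatives are given only where stated above, so the other counts have no background. The cause of these shifts was not tested. With the replicate number as a block, which the labels do not tie to a shared dam or day, the count for subcutaneous adipose tissue was 5 for CN vs. DG and 12 for DG vs. HY at FDR ≤0.20, and 1 for DG vs. HY at FDR ≤0.05. Deviations of same-numbered pools correlated at -0.0280, 0.217 and 0.0805 on average (muscle, subcutaneous, perirenal), and 3, 7 and 7 of 12 pools were closest to their own number. With the pool as a block between tissues, 30 genes instead of 31 were called for subcutaneous vs. perirenal adipose tissue, and no other count of a tissue comparison moved by over 1.5 times. For single genes, 1601 alternatives kept the call and direction, 45 lost the call, 24 gained it and 45 turned. Genes with few counts, such as PSMA8 with 7 in its lowest library, limit what a comparison can detect.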
